A study of Coregonus migratorius and Coregonus peled with 8 samples.

Results

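The genes described here are 139 of the 2184 listed for larvae of 2 fishes, the Baikal omul, Coregonus migratorius, and its relative the peled, Coregonus peled. In omul they stood at least 2-fold higher in larvae from nature than in the unheated aquaculture control, and in peled at least 2-fold lower. They were chosen from the ratio of the 2 libraries of each species, after 1 was added to each value, and the higher library of each pair had to reach 10. Of the 1213 genes that reached this value in both species, 11.5% met both conditions. Because the values of these 4 libraries chose the genes, they are given as a description, and tests use only the heated libraries.

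Omul and peled are coldwater whitefishes of the salmonid family, raised in hatcheries and released to support wild stocks. Salmonids descend from an ancestor whose whole genome was duplicated, so that many of their genes have close copies. A transcriptome assembled without a genome can place reads of such copies, or of the 2 species' versions of a gene, under separate identifiers. The genes carry identifiers of the Trinity form, DN number, component (c) and gene (g). The files do not pair them with gene names, so no role can be given to any of them and only a few are named.

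Per the labels, each library was made from RNA of 12 to 16 whole larvae of 1 species, extracted larva by larva and then combined, and each of the 8 groups is a single library. Larvae called nature came from ponds by a river hatchery. The other groups were kept in aquaria for 1.5 months at 9 to 12 °C. Of these, the control was not heated, acute stress was a rapid warming to 21 °C for 1 h, and chronic stress was warming to 21 °C for 24 h, 3 times a week. The labels state rearing time and temperature only of the aquarium groups, so age, temperature and origin cannot be told apart. The values are normalized expression values of unstated scale, so levels are not compared between genes per length. In whole larvae, fewer cells of a type and less RNA per cell cannot be told apart.

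Over all 2184 genes the 2 libraries from nature correlated more closely with each other than with any aquaculture library. Aquaculture omul and aquaculture peled correlated with each other at only r = 0.096 to 0.25 across genes. The library labelled nature peled correlated with nature omul at r = 0.93 across genes, with the 3 aquaculture omul libraries at 0.64 to 0.65, and with the 3 aquaculture peled libraries, its own species, at 0.22 to 0.41. Nature omul correlated with aquaculture omul at 0.65 to 0.68 and with aquaculture peled at 0.36 to 0.51. Across the 139 genes alone, nature omul correlated with aquaculture omul at 0.45 to 0.55 and with aquaculture peled at 0.80 to 0.91. For nature peled these values were 0.45 to 0.61 and 0.82 to 0.90. The choice of the genes by nature and control values can shape the correlations across the 139. The species of the larvae was not tested, since the files name no marker gene, so every ratio with a nature library rests on the label of that library. The 139 genes were chosen with these 2 libraries and cannot be found without them, whereas the tests below do not use them. Summed values ran from 79169 in acute peled to 228369 in nature peled, with 6 to 74 genes per library listed at 0, and sequencing depth is unknown.

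In the libraries of the rule, the 139 genes were lowest in the omul control and highest in the peled control. Their median value was 2.59 in the omul control, 24.9 in nature omul, 13.5 in nature peled and 50.8 in the peled control. The log2 ratio of nature to control had a median of 2.60 in omul, with a range of 1.01 to 7.99 and of -1.47 in peled, reaching down to -6.09. Over all listed genes, 33.0% of those read in omul were at least 2-fold higher in nature and 39.7% of those read in peled were at least 2-fold lower. The sizes of the ratios were unrelated in the 2 species, with r = 0.034 across the 139 genes. For 126 genes both nature libraries lay between the 2 controls, a count for which no share over all genes was taken. Nature omul exceeded nature peled for 125, beside 1237 of all 2184 listed genes. The rule itself sets nature omul above and nature peled below the control of its species, so neither count is independent of the choice.

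**Figure D1:**
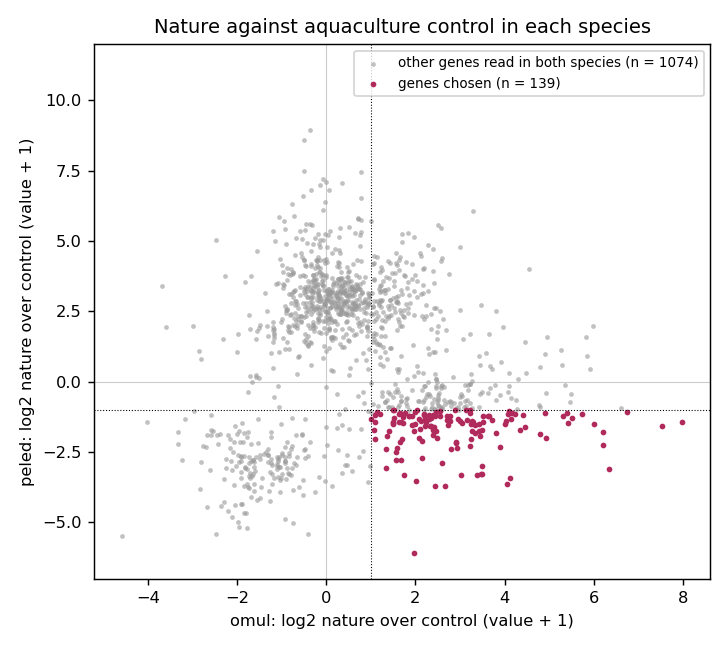
Log2 ratio of nature to the aquaculture control (value + 1) in omul on the x axis and in peled on the y axis, 1 point per gene read in both species. The 139 chosen genes (red) fill the lower right corner that the rule defines, beyond the dotted lines at 1 and -1, with medians of 2.60 in omul and -1.47 in peled.

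The gene with the largest ratio in whichever species had the smaller one was TRINITY_DN8272_c0_g1. Its value in omul was 16.3 in nature, 0.036 in the control, 0.019 after acute warming, and it was listed at 0 after chronic warming. In peled it was at 2.92 in nature and at 48.2, 55.2 and 46.7 in the control, acute and chronic libraries. The heated libraries therefore lay beside the control of their own species. TRINITY_DN109034_c0_g1 was at 16.5 in nature omul and listed at 0 in the other 3 omul libraries. In peled it was at 1.91 in nature and at 30.5, 26.8 and 34.2 in the control, acute and chronic libraries. No value of these 2 genes in an aquarium library of 1 species came near those of the other.

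At the edge of the rule the genes inside and outside differed little in the ratio that decided their place. Just inside, TRINITY_DN9827_c1_g1 had values of 13.8 in nature omul, 4.23 in its control, 11.9 in nature peled and 24.8 in the peled control. TRINITY_DN13378_c0_g1, also inside, had 29.5, 9.64, 22.6 and 46.5 in the same order, with a log2 ratio of -1.01 in peled. Just outside, TRINITY_DN3999_c0_g1 had 10.02, 4.51, 10.4 and 22.8, and its log2 ratio in omul missed the threshold of 1. TRINITY_DN29816_c1_g1, also outside, had 173, 21.2, 119.8 and 239.6, with a log2 ratio of -0.99 in peled but 2.97 in omul. In acute and chronic peled the genes inside lay nearer to the peled control than those outside. The genes inside were at 19.5 and 27.6, and at 65.6 and 41.4, and those outside at 9.23 and 10.5, and at 102 and 67.2.

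**Figure D2:**
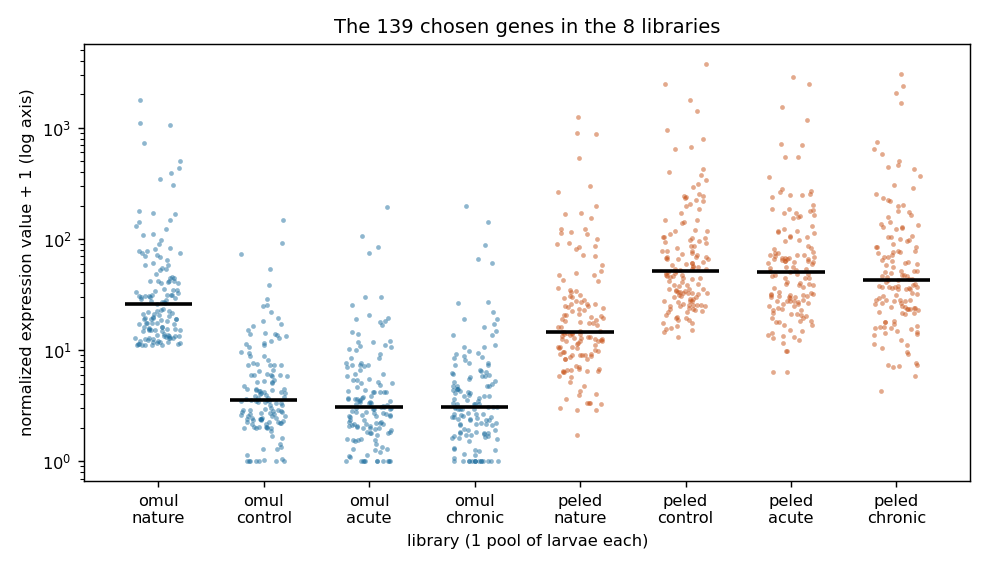
Values of the 139 genes (value + 1, log axis) in each of the 8 libraries, 1 point per gene, with the median as a bar. The 3 aquarium omul libraries are low (medians of 2.09 to 2.59), the 3 aquarium peled libraries high (41.4 to 50.8) and the libraries from nature lie between (24.9 and 13.5).

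The 4 heated libraries were not used by the rule, and showed a difference between the species in the same direction as the controls. In the controls all 139 genes were at least 2-fold higher in peled (lowest log2 ratio 1.77), beside 40.9% of all genes read. Over all listed genes the heated libraries correlated with the control of their species at r = 0.91 in omul and 0.88 to 0.89 in peled. The direction in the heated libraries is therefore not independent of the choice. Heated peled exceeded heated omul in limma's test for 137 of the 139 genes and was lower for 0, with 37.0% of all 2184 genes called higher in peled and 41.4% called lower (2 libraries per species, acute and chronic, adjusted p below 0.05 over all genes). The median log2 difference was 3.42, or 10.7-fold, against -0.45 over all listed genes, with quartiles of 2.90 and 4.71. Both heated peled values lay above both heated omul values for 135 genes, where 40.0% of all listed genes showed this order. By single libraries at the value minimum, peled was at least 2-fold above omul for all 135 genes read after acute and for 127 of 129 after chronic warming, beside 45.2% and 39.9% of all genes read. Omul medians were 2.09 after acute and 2.10 after chronic warming, and peled medians were 50.01 and 41.4.

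The gene with the largest difference also had the highest mean value of the 139. TRINITY_DN79_c1_g2 was at 1770 in nature omul, 8.57 in the omul control, 0.56 after acute and 0.26 after chronic warming. In peled it was at 1249 in nature and at 3758, 2881 and 3047 in the control, acute and chronic libraries. All 3 aquarium peled values exceeded both nature values, and all 3 aquarium omul values lay below 10. Heated peled exceeded heated omul by 11.04 (log2, SE 0.53, limma adjusted p = 9.95e-05).

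TRINITY_DN92432_c0_g1 followed in size. It was at 142 in nature omul, 1.70 in the omul control and 0.11 after acute warming, and was listed at 0 after chronic warming. Its peled values were 153 in nature and 338, 360 and 306 in the control, acute and chronic libraries. Here the libraries from nature were nearly equal while the heated species differed by 8.31 (log2, SE 0.42, limma adjusted p = 9.95e-05).

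Only 2 of the 139 genes were not called between the heated species. TRINITY_DN49387_c1_g1 was at 80.2 in nature omul and listed at 0 in its control, and acute and chronic omul held 6.38 and 7.58. Its peled values were 0.73 in nature, 13.7 in the control, and 5.40 and 4.91 after acute and chronic warming. Heated peled and omul values thus lay close together, and their log2 difference was -0.37 (SE 0.40, limma adjusted p = 0.406). TRINITY_DN9044_c0_g1 was at 19.96 in nature omul, 6.40 in the control, 3.69 after acute and 59.3 after chronic warming. Its peled values were 15.3, 43.0, 12.4 and 27.2 in the same order, and the log2 difference was 0.21 (SE 0.64, limma adjusted p = 0.773). In the control and acute states this gene was higher in peled, and after chronic warming higher in omul.

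The heated species also overlapped for 2 called genes, named after their values were seen. Acute and chronic omul had TRINITY_DN261806_c1_g1 at 9.70 and 0.97, and peled had it at 70.8 and 6.65. TRINITY_DN8736_c0_g1 had values of 29.3 and 15.3 in omul against 171 and 22.3 in peled (limma adjusted p = 0.0472). In both, peled was higher within each regime and the overlap came between acute omul and chronic peled.

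**Figure D3:**
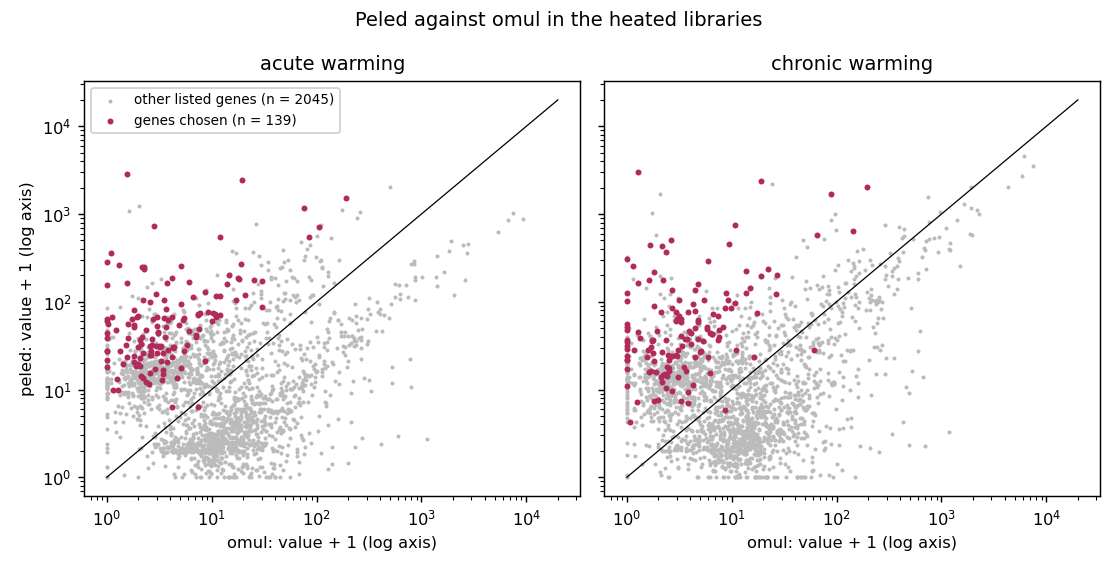
Peled against omul values (value + 1, log axes) after acute (left) and chronic warming (right), 1 point per listed gene, with the line of equal values. The 139 chosen genes (red) lie above the line except for 1 gene after acute and 2 after chronic warming, with median log2 differences of 3.56 and 3.44.

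Across the 139 genes the size of the species difference was related from state to state. The log2 ratio of peled to omul in the controls correlated with that after acute warming at r = 0.77 and with that after chronic warming at 0.72, and the acute and chronic ratios correlated at 0.84. These values run across genes of the same assembly and are a description. Between the libraries from nature the order was the other way and smaller, with a median log2 ratio of peled to omul of -0.59. There 42 genes were at least 2-fold lower in peled and 0 at least 2-fold higher, beside 12.3% and 12.6% of all genes read, an order that the choice by nature values can shape.

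Set against nature, the heated libraries gave the pattern that the controls had given. Nature omul was at least 2-fold above acute omul for 135 of the 139 genes and above chronic omul for 133, beside 32.8% and 33.1% of all genes read. Nature peled was at least 2-fold below acute peled for 108 and below chronic peled for 91, beside 41.2% and 36.6%. With the acute libraries in place of the controls the rule found 136 genes (11.2% of those read in both species), of which 105 were among the 139, and with the chronic libraries 110 (9.17%), of which 86 were. These comparisons share the nature libraries with the rule.

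The libraries from nature lay between the heated libraries of the 2 species. For 95 of the 139 genes both nature values were above both heated omul and below both heated peled values, an order shown by 15.7% of all listed genes. On the linear scale from the mean of the heated omul libraries (0%) to that of the heated peled libraries (100%), nature omul stood at a median of 55.6% (quartiles 36.2% and 77.2%) and nature peled at 30.4% (quartiles 19.9% and 43.6%). The rule chose genes that were high in nature omul and low in nature peled, each against its control, and the heated libraries correlated with those controls. Neither the count of 95 nor the place and order of these 2 medians is therefore independent of the choice.

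In peled, where all 139 genes could be read, 103 stood within 2-fold of the control in both heated libraries, beside 59.5% of all genes read in both. There, 5 stood at least 2-fold above the control after acute warming and 10 below, beside 12.3% and 7.07% of all genes read. After chronic warming 7 stood at least 2-fold above and 24 below, beside 20.1% and 16.3%. In omul, only 26 genes reached a value of 10 in the acute or control library, with 2 at least 2-fold higher and 6 lower (8.15% and 10.5% of all genes read) and 18 within 2-fold (81.3%). For chronic warming 28 could be read, with 3 higher and 6 lower (10.9% and 10.7%) and 19 within 2-fold (78.4%). The median log2 ratio to the control over the 139 genes was -0.20 after acute and -0.27 after chronic warming in omul, and -0.20 and -0.14 in peled. Over all listed genes it was -0.05, -0.06, -0.06 and 0.03 in the same order. The control values chose the genes and enter each of these ratios, so they have no test.

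The gene TRINITY_DN79_c0_g3 had the highest ratio to the control in both heated omul libraries. It was at 506 in nature omul, 0.99 in the control, 105 after acute and 141 after chronic warming. In peled it was at 298 in nature and at 795, 704 and 639 in the control, acute and chronic libraries. The omul control alone was low for this gene, although heated peled still exceeded heated omul by 2.45 (log2, SE 0.85, limma adjusted p = 0.0305). It shares its DN number with TRINITY_DN79_c1_g2, whose heated omul values were below 1. Among genes that reached 10 in the heated or control library, the others at least 2-fold higher in heated omul, with the not yet described ones named after their values were seen, were TRINITY_DN23531_c0_g1 (log2 ratio 1.42, acute), TRINITY_DN9044_c0_g1 (3.03, chronic) and TRINITY_DN27426_c0_g1 (1.09, chronic).

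The lowest ratio in both heated omul libraries, among genes that reached 10 in the heated or control library, was that of TRINITY_DN23545_c0_g1, at 167 in nature, 53.03 in the control, 13.7 after acute and 9.63 after chronic warming. Its peled values were 114, 312, 202 and 96.8 in the same order, so that chronic peled was also the lowest of the peled libraries.

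In peled the highest acute ratio belonged to TRINITY_DN58526_c0_g1, at 104 in the control, 268 after acute and 41.7 after chronic warming, with 51.03 in nature. The other 4 genes at least 2-fold higher in acute peled, some named after their values were seen, were TRINITY_DN52243_c0_g1, TRINITY_DN261806_c1_g1, TRINITY_DN11615_c0_g2 and TRINITY_DN6978_c0_g1, with log2 ratios of 1.03 to 1.13. The highest chronic ratio belonged to TRINITY_DN36377_c0_g1, at 43.8, 62.0 and 165 in the control, acute and chronic libraries and 16.6 in nature. The lowest chronic ratio belonged to TRINITY_DN57970_c2_g1, at 100.4, 37.8 and 8.32 in the same libraries and 9.11 in nature. Chronic peled thus lay at the nature level for that gene and far above it for TRINITY_DN36377_c0_g1. The lowest acute ratio in peled was that of TRINITY_DN9044_c0_g1, described above.

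**Figure D4:**
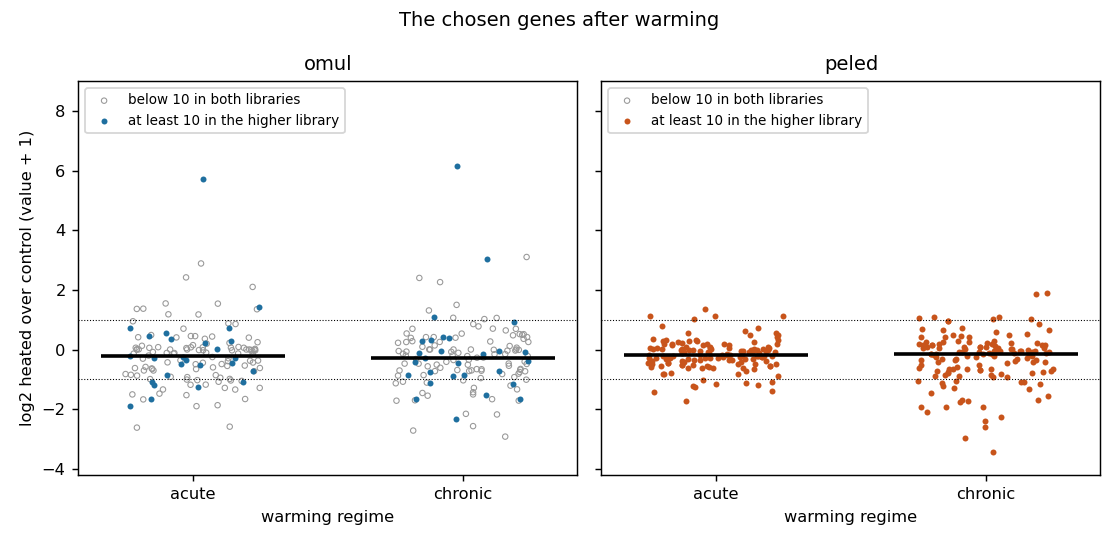
Log2 ratio of each heated library to the control of its species (value + 1) for the 139 genes, with the median as a bar and dotted lines at 2-fold. Open points are genes below 10 in both libraries; medians lie between -0.27 and -0.14, and the lower tail is longest in chronic peled, where 24 genes stood at least 2-fold below the control.

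Chronic was also set against acute warming, which uses none of the libraries of the rule. In limma's test over both species 2 of the 139 genes were lower after chronic warming and 0 higher, beside 0.778% and 0.137% of all genes, with 9 and 3 at an unadjusted p below 0.05 beside 7.14% and 4.9% of all genes. For TRINITY_DN52243_c0_g1 the control, acute and chronic values were 3.46, 7.59 and a listed 0 in omul, and 59.5, 130 and 20.8 in peled. The difference on the log2 scale was -2.84 (SE 0.42, limma adjusted p = 0.0398). TRINITY_DN261806_c1_g1, given above, had controls at 3.17 in omul and 31.8 in peled, and differed by -2.83 (SE 0.43, limma adjusted p = 0.0443). In both genes the acute value was above and the chronic value below the control in each species. By single libraries of peled, 11 of the 137 genes read were at least 2-fold higher after chronic than after acute warming and 17 lower, beside 19.7% and 19.0% of all genes read. Both calls of limma's test were lost with a pseudocount of 0.1 (limma adjusted p = 0.149 and 0.0764). They were also lost without the intensity trend (limma adjusted p = 0.0913 for both) and in a model of regime alone. That model leaves the species difference in its residual, so it cannot show whether the calls hold. With 1 heated library left out, the species difference also enters the regime term. The log2 differences then ran from -5.07 to -0.62 for the first gene and from -4.21 to -1.46 for the second.

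On the higher side no gene passed. TRINITY_DN9044_c0_g1 had the highest value, 2.38 on the log2 scale (SE 0.64, limma adjusted p = 0.174), and passed only with libraries scaled to a common median (limma adjusted p = 0.00388). TRINITY_DN18246_c0_g2 was listed at 0 in acute and at 3.12 in chronic omul, while acute and chronic peled held 17.1 and 31.7 (log2 difference 1.45, SE 0.45, limma adjusted p = 0.238).

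The group's share of the summed value differed between the species, and a few genes weighed heavily in it. The whole group held 28.2% of the summed value of all listed genes in the peled control, 24.9% in acute and 19.997% in chronic peled, against 0.89% in the omul control, 0.84% in acute and 0.89% in chronic omul. In nature it held 7.32% in omul and 3.43% in peled. From the peled control to nature peled the group's sum went from 22775 to 7831, and that of all listed genes from 80854 to 228369. In omul the group's sum went from 1005 to 11330, and that of all listed genes from 112336 to 154860. The shares thus also move with the values of the other genes. The control and nature values chose the genes, so these shares are not independent of the choice. Shares and ranks use values of unstated scale and may depend on transcript length. The 4 genes with the highest means held 41.4% of the group's sum in the peled control. By value as listed, TRINITY_DN79_c1_g2 ranked 1 among all listed genes in the peled control and 1130 in the omul control. TRINITY_DN39698_c0_g1, which ranked 2 and 528, was at 1064 in nature omul and at 23.9, 18.5 and 18.1 in the aquarium libraries of that species. Its peled values were 890 in nature and 2483, 2465 and 2384 in the control, acute and chronic libraries, and heated peled exceeded heated omul by 6.97 (log2, SE 0.76, limma adjusted p = 0.000307). At the low end, 7 of the 139 genes were below 1 in all 3 aquarium omul libraries, and 11 were at 10 or more in all 3. No share over all genes was taken for these 2 counts. In the omul control alone 24 of the 139 reached 10, beside 47.8% of all listed genes. The rule favours genes that are low in that control, so these counts are not read as a trait of the 139.

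Genes of the same assembly component offered a comparison that the rule had not used, since Trinity places transcripts that share sequence in 1 component. The 139 genes came from 139 components. Of these 9 held another listed gene, here called a partner, and there were 10 partners in all. Thus 6.5% of the 139 genes shared a component with a listed gene, beside 9.4% of all listed genes. Each of the 10 partners was lower in heated peled than in heated omul in limma's test, with log2 differences of -6.85 to -1.87, while the 9 chosen genes had differences of 2.96 to 7.18. Of all 66 listed genes called higher in heated peled that had partners, 42.4% had only partners called lower, and of the 57 that were not among the 139, 33.3% did. The smallest log2 range of any listed gene over the 8 libraries was 2.25, so a partner of steady level would not be among them, and reads of near-identical copies may be split between partners.

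TRINITY_DN29953_c0_g1 was at 148 in nature omul, followed by 2.52 in the control, 0.55 after acute and 0.63 after chronic warming. In peled it was at 90.6 in nature and 196, 161 and 176 in the control, acute and chronic libraries. Its partner TRINITY_DN29953_c0_g2 was at 233 in nature omul and at 255, 199 and 206 in the same aquarium libraries of omul. In peled the partner was at 188 in nature and at 0.49, 0.44 and 1.16 in the aquarium libraries. Each aquarium library thus held 1 gene of the component at a high and the other at a low level, and both libraries from nature held both at a high level. The log2 difference of heated peled and omul was 6.73 (SE 0.41) for the first and -6.85 (SE 0.43) for the partner. This component is shown for the size of its values and was chosen after they were seen. The next 2 components are shown because they held a partner of the opposite pattern.

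In 2 components a partner had the opposite pattern under the rule itself. TRINITY_DN14335_c0_g1 was at 53.5 in nature omul, 2.66 in the control, 1.25 after acute and 1.64 after chronic warming. Its peled values were 46.8 in nature and 237, 246 and 506 in the aquarium libraries. TRINITY_DN14335_c0_g2 was at 46.8 in nature omul and 263, 232 and 294 in aquarium omul. In peled TRINITY_DN14335_c0_g2 was at 65.9 in nature and 1.01, 1.22 and 21.8 in the aquarium libraries. Summed over the component, the aquarium libraries held 233 to 528, and nature 100.3 in omul and 113 in peled, the lowest of the 8.

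The second such component held TRINITY_DN8272_c0_g1, given above, with 2 partners. TRINITY_DN8272_c0_g4 was at 9.14 in nature omul and 22.1, 25.6 and 33.4 in aquarium omul, and at 11.2 in nature peled and 2.40, 1.45 and 7.15 in aquarium peled. TRINITY_DN8272_c0_g3 was at 17.9 in nature omul and 8.68, 10.4 and 27.2 in aquarium omul, and at 13.3 in nature peled and 5.32, 3.02 and 4.19 in aquarium peled, so it was lower in the aquarium peled libraries without the opposite pattern.

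Summed over partners, the species difference of each of these components was smaller than that of its chosen gene. Each sum joins a gene called higher in heated peled with partners called lower, and no share over all components was taken. In the sums over components the difference of heated peled and omul lay between -0.53 and 0.46 (log2) for 8 of the 9, none of them called, and TRINITY_DN2940_c1 was called at 1.65 (SE 0.41, limma adjusted p = 0.00741). A p that misses the threshold does not show equal levels, and the SE reached 0.82 for TRINITY_DN14335_c0. The other 130 genes had no listed partner.

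**Figure D5:**
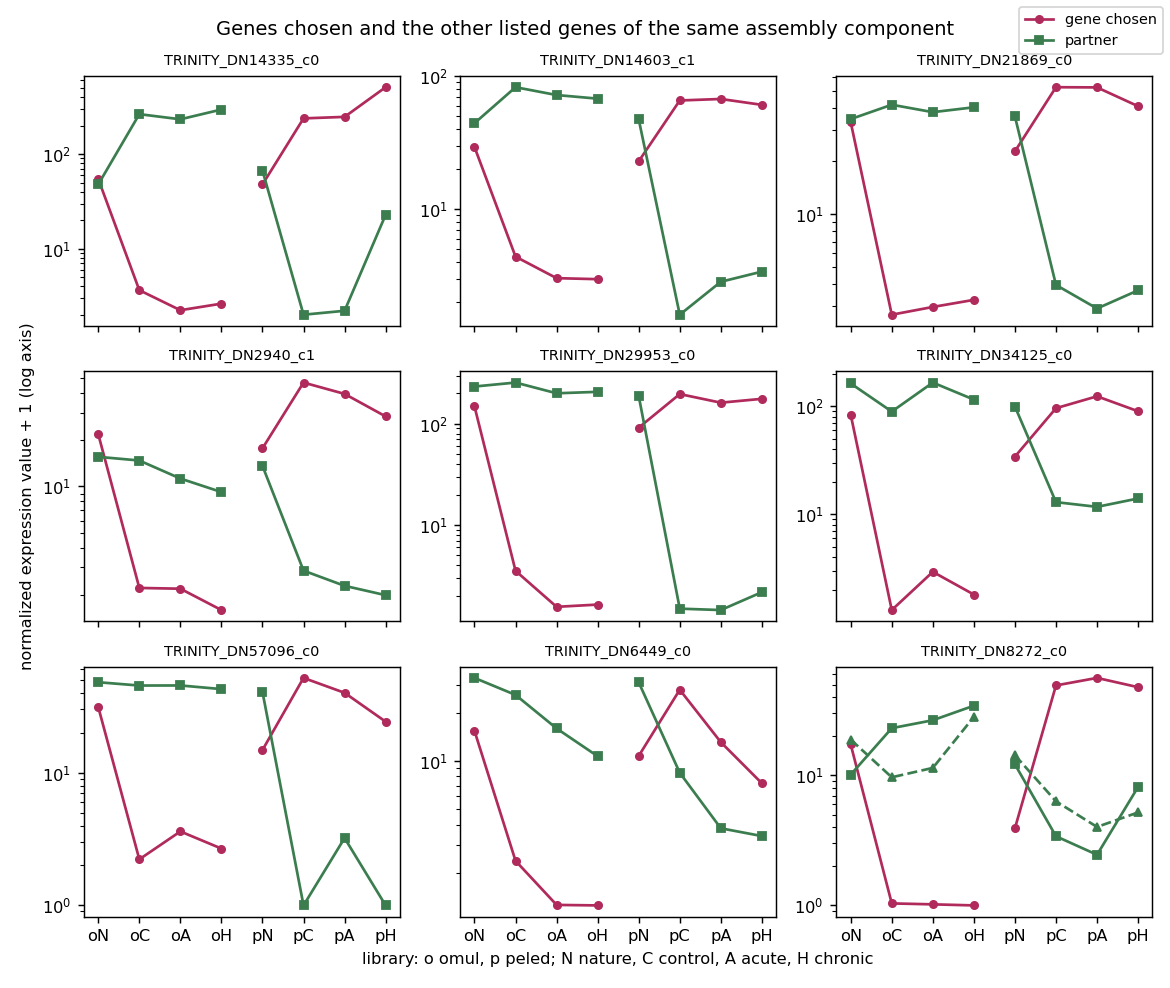
Values (value + 1, log axis, scaled per panel) of the 9 chosen genes that have partners (red circles) and of their 10 partners (green squares and triangles) in the 8 libraries, with lines joining the libraries of a species. In the heated libraries every chosen gene is higher in peled (log2 differences of 2.96 to 7.18) and every partner higher in omul (-6.85 to -1.87). In the libraries from nature all of them are above 0, the lowest being TRINITY_DN8272_c0_g1 at 2.92 in nature peled.

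The 39 genes of the opposite pattern, lower in nature omul and higher in nature peled, were set beside the 139. In the heated libraries 38 of the 39 were lower in peled in limma's test and 0 higher, with a median log2 difference of -2.62, against 137 higher and 0 lower for the 139. In the controls all 39 were already at least 2-fold lower in peled, so this direction is not independent of the choice either. The 175 genes higher in nature in both species had a median of -0.74, with 16 called higher in peled and 58 lower. The opposite genes held 2.33% of the summed value in the omul control and 0.16% in the peled control. With the acute libraries in the rule there were 136 genes of the described pattern and 38 of the opposite one, and with the chronic libraries 110 and 45. After scaling to a common median the numbers were 141 and 62.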

How the data were processed

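Poly(A) RNA of pooled whole larvae was sequenced on an Illumina instrument, per the labels' protocols. The deposited values are a normalized expression signal per assembled gene, with 1 library for each of 8 groups. The unit, scaling, quantifier and assembler of these values, and the rule that selected the 2184 genes, were not given in the sources used here. Per the submitters' processing notes 2 tools were involved, Trimmomatic 0.36 and edgeR 4.0.3, with no role stated. Depth is unknown, so no counting interval is given.

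Ratios were taken as log2(value + 1), which understates changes of low genes; pairs of single libraries have no test. Heated peled and omul, and chronic and acute warming, were tested with limma 3.58.1 (R 4.3.3, intensity trend) on the 4 heated libraries, with species and regime as additive terms, 1 residual degree of freedom and no filter. An adjusted p (Benjamini-Hochberg over 2184 genes) below 0.05 was called. The p-values rest on what the additive terms leave unexplained in these 4 libraries, with the spread shared over genes. They do not measure the spread between replicate pools of a group. The fit was tested on simulated data. Named genes are the extremes of each comparison, by a written rule, apart from those said to be chosen later. The genes, lists and tests were chosen with earlier results of these data known. The alternatives were other pseudocounts, minimum values, thresholds and models, scaling to a common median, sums over components and leaving out each heated library.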

Additional observations from a re-analysis of the deposited data

Results flagged for a closer look

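The contrast of nature with the heated libraries ran opposite ways in the 2 species, but the nature values, high in omul and low in peled, had chosen the 139 genes, so the direction is not independent of the choice. The difference between the species in this contrast was not tested, since each group is a single library. The median log2 ratio of nature to acute warming was 2.86 in omul and -1.43 in peled, and 105 of the 139 genes were at least 2-fold higher in nature omul and at least 2-fold lower in nature peled. Over all listed genes the median was 0.26 in each species, and 136 genes, 11.2% of those read in both, met this condition. The median log2 ratio of nature to chronic warming was 2.91 in omul and -1.36 in peled, and 86 of the 139 genes were at least 2-fold higher in nature omul and lower in nature peled. Over all listed genes the medians were 0.29 and 0.41, and 110 genes, 9.17% of those read in both, met the condition. After warming, set against the control, 0 of the 26 genes read in both species for acute and 0 of the 28 for chronic warming were at least 2-fold apart in opposite directions. Few of these genes were 2-fold apart in omul at all, 2 higher and 6 lower after acute and 3 and 6 after chronic warming. The share over all listed genes was not taken, so these counts are not read as a trait of the 139.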

How the results depend on the processing

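The number of genes meeting the rule depended on its limits, with 221 at a minimum value of 5, 75 at 20, 209 at 1.5-fold and 24 at 4-fold. It was 110 to 150 with other pseudocounts, scaling to a common median (141, of which 115 among the 139), sums over components and heated libraries in place of controls. The 137 genes higher in heated peled were 110 to 126 when a heated library was left out, each with a model of species alone and the lone library assumed to vary like the others, and 129 to 137 otherwise; 0 were lower in any of these fits. In the contrast of chronic with acute warming, the 2 lower genes became 0 with a pseudocount of 0.1, without the trend and with regime alone in the model. Models of regime alone cannot show whether the calls hold, since the species difference stays in their residual. With 1 library left out it also enters the regime term. Scaling gave 4 lower genes and 1 higher gene. The higher genes were otherwise 0 in each fit, 0 to 0 without a library. For 2 genes that were not called, the sign turned without acute omul or without chronic peled, in models of species or regime alone. TRINITY_DN9044_c0_g1 then had a peled minus omul difference of -1.63 and -0.33, and TRINITY_DN18246_c0_g2 a chronic minus acute difference of -0.64 and -0.048. Such fits do not balance species and regime, and the cause was not tested. Within each species TRINITY_DN18246_c0_g2 was higher after chronic than after acute warming (log2 ratio 2.04 in omul and 0.85 in peled). Scaling to a common median moved the median log2 ratio of nature to control over all genes by -0.23 in omul and -0.11 in peled. No paired analysis was possible because each group is 1 library and the labels give no replicate numbers. Unknown depth limits what can be said of values below 1.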

Other observations

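Genes can also be picked by the heated libraries alone, a choice made after the data were seen that uses neither nature nor control. At least 4-fold higher in peled in both the acute and the chronic state, among genes whose higher library reached 10, were 388 of the 2184 genes. Of these, 118 were among the 139 (30.4% of the 388 and 84.9% of the 139). In the controls all 139 were at least 2-fold higher in peled, so this overlap is not independent of the choice. The 388 genes had a median log2 ratio of nature to control of 2.08 in omul and -1.52 in peled. On the linear scale from heated omul (0%) to heated peled (100%), nature omul stood at a median of 43.0% and nature peled at 25.4%, and 321 and 317 of the 388 values lay between 0% and 100%. At least 4-fold lower in peled in both states were 363 genes, 27 of them of the opposite pattern. For these the median log2 ratio of nature to control was -0.35 in omul and 2.96 in peled, and the medians on the scale were 28.9% and 10.5%, with 266 and 199 values between. Both lists were picked to lie far apart in the libraries that set 0% and 100%, and heated libraries correlated with the control of their species. The counts between and the ratios to control are therefore not independent of these picks, and no share over all genes was taken.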
